A study of Canis lupus familiaris with 31 samples.

Results

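The carbohydrate sulfotransferase CHST9 and 8 other genes of its family were described in whole blood of dogs with and without HTG, an abnormally high level of triglycerides in the blood. They were chosen from measured values in part. CHST9 was taken because of its difference between cases and controls in these same libraries, and CHST2, CHST7, CHST10, CHST11, CHST12, CHST13, CHST14 and CHST15 were taken by their family name. Of the 9 genes, 8 had a row of that symbol among the 32704 rows of the table of counts, and all 8 were among the 13918 genes that passed the filter on low counts. CHST13 had no row under that symbol and was not analysed here.

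The study sequenced RNA of peripheral whole blood from 31 purebred Miniature Schnauzers, with 1 library per dog. The cases were 13 dogs with spontaneous HTG (5 females and 8 males), and the controls were 18 dogs of the same breed with normal fasting triglycerides (8 females and 10 males). All were older pet dogs on mostly different diets, bled after a fast, without any drug known to alter lipids and without a diagnosed endocrine disease. The males were castrated and nearly all females were spayed. No dog received an experimental treatment, and the HTG arose naturally. Any other trait that differed between the dogs of the groups and was not fitted here cannot be told apart from HTG.

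Carbohydrate sulfotransferases are Golgi enzymes that move a sulfate group from the donor PAPS onto a set position of a sugar. The sugar may sit in a chondroitin or dermatan chain of a proteoglycan, or at the end of a glycan on a glycoprotein. Leukocytes carry such chains on their surface and store chondroitin sulfate on serglycin in their granules, while sulfated glycans of the lymph node vessel wall are ligands of L-selectin. CHST9 puts sulfate on terminal N-acetylgalactosamine of glycoprotein glycans, and CHST11, CHST12 and CHST14 act on the same sugar within chondroitin or dermatan chains.

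The libraries held 14524659 to 41533599 counts, and the median library held 20588919 in cases and 19679367 in controls. Levels are given as CPM, the counts of a gene scaled to TMM-normalized libraries of equal size, and no level was compared between genes, because the lengths of the genes were not used here. The library control_03 stood apart, with the lowest total, the fewest genes with a count (15228) and the lowest median Spearman correlation with the other libraries (0.939). By that correlation control_09 was next and close to it (0.948). The 31 libraries were also split into 2 sides by their mean log2 CPM on 366 rows named after small non-coding RNAs. The cut was placed by rule at the largest gap between neighbouring dogs, in values that ran from 0.677 to 2.37. It left 10 dogs (5 cases and 5 controls) at or above 1.66 and 21 dogs (8 cases and 13 controls) at or below 1.40. The labels name no batch. Markers listed for T cells, B cells and erythroid cells passed the filter in full (7 of 7 each), as did 10 of 12 platelet markers and 7 of 8 neutrophil markers, whereas 4 of 6 endothelial markers, CDH5, ROBO4, EMCN and PLVAP, did not.

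CHST9 (ENSCAFG00000018122) was low in every dog and higher in cases than in controls. In the 13 cases its lowest level was 0.397 CPM (case_04), its median 0.948 CPM and its highest 2.63 CPM (case_05), from 10 to 58 counts. In the 18 controls its lowest level was 0.0510 CPM (control_16), its median 0.408 CPM and its highest 0.754 CPM (control_11), from 1 to 27 counts. The groups overlapped, with 8 of 13 cases above every control and 12 of 13 above the control median, while no control reached the case median and 9 of 18 controls lay below the lowest case.

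Case_05 and case_01 stood highest, at 2.63 and 2.57 CPM, followed by case_08 at 1.67 CPM. The 5 cases within the range of the controls were case_07 (0.696 CPM), case_10 (0.671 CPM), case_03 (0.591 CPM), case_12 (0.491 CPM) and case_04. Mean CHST9 was 1.14 ± 0.727 CPM (SD, n = 13) in cases and 0.367 ± 0.191 CPM (SD, n = 18) in controls. The fitted log2 fold change was 1.60 (SE 0.30, 95% interval 0.99 to 2.20), a 3.02-fold higher level. In edgeR's quasi-likelihood test over all genes its adjusted P was 0.0293 and its P was the third smallest of 13918. These are the values that led to the choice of CHST9, so they describe it and are not a test of it.

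Counting error was large beside the spread of CHST9 among controls. At the median of 7.5 counts in controls, counting alone gives a coefficient of variation of 36.5%, against 51.9% observed. At the median of 19 counts in cases, counting alone gives 22.9%, against 63.9% observed.

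**Figure D1:**
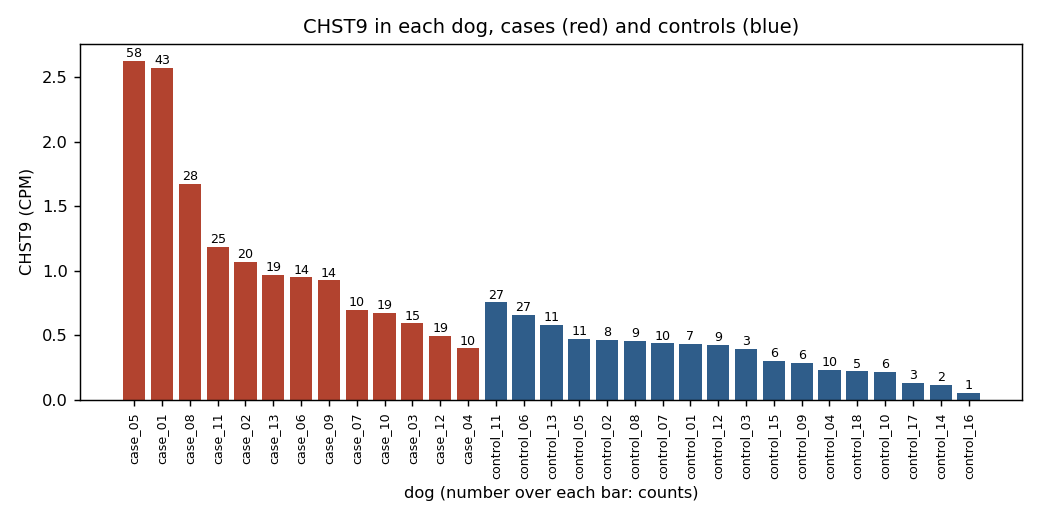
CHST9 in each dog: bar height is the level in CPM, the number over each bar is the count it rests on, and dogs are sorted within cases (red) and controls (blue). There, 8 of 13 cases stand above the highest control (0.754 CPM), and case_05 and case_01 stand above 2.5 CPM.

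Leaving out 1 dog at a time gave CHST9 log2 fold changes of 1.43 to 1.70, with adjusted P from 0.0167 to 0.0832 (edgeR). The adjusted P rose past 0.05 without case_01 (log2 fold change 1.44, adjusted P = 0.0832), without case_05 (1.43, adjusted P = 0.0735), without control_10 (1.56, adjusted P = 0.0617) and without control_17 (1.55, adjusted P = 0.0512). Cases and controls differed by 1.74 on the log2 scale (SE 0.51, adjusted P = 1.00) among the 10 dogs with many small RNA counts alone, and by 1.50 (SE 0.38, adjusted P = 0.185) among the 21 with few. With the side as a covariate over all dogs it was 1.57 (SE 0.30, adjusted P = 0.0402).

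The platelet, erythroid and neutrophil scores had the largest differences between the group means among the 9 marker scores, each with overlapping ranges, and no test of these differences was made. The platelet score (mean centred log2 CPM of 10 markers) was 0.336 ± 0.466 (SD, range -0.563 to 1.06) in cases and -0.243 ± 0.573 (range -1.30 to 0.857) in controls. The erythroid score (7 markers) was 0.390 ± 1.13 in cases (range -1.53 to 2.62) and -0.281 ± 1.21 in controls (range -2.01 to 2.95). The neutrophil score (7 markers) was 0.265 ± 0.420 in cases (range -0.428 to 0.968) and -0.191 ± 0.673 in controls (range -1.05 to 1.51).

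With one of these scores as a covariate, CHST9 had a log2 fold change of 1.28 (SE 0.34, adjusted P = 0.584) for platelets, 1.30 (SE 0.29, adjusted P = 0.0925) for erythroid cells and 1.38 (SE 0.33, adjusted P = 0.149) for neutrophils, each still above 0 and none past the threshold. In whole blood, fewer cells of a type and less RNA per cell cannot be told apart.

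None of the other 7 genes differed detectably between cases and controls. Over all 13918 genes, 5 genes (0.0359%) had an adjusted P of at most 0.05, all 5 higher in cases, and CHST9 was among them. That count was 89 with DESeq2, and with 1 dog left out it went from 1 (without case_01) to 154 (without control_03). The other 7 sulfotransferase genes had adjusted P from 0.816 to 0.996, with log2 fold changes from -0.16 to 0.05. The median log2 fold change over the 8 genes was -0.02, and over all tested genes it was -0.02.

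CHST11, CHST12 and CHST14 sulfate position 4 of N-acetylgalactosamine in chondroitin or dermatan chains. CHST11 (ENSCAFG00000032127), a main chondroitin 4-O-sulfotransferase, ranged from 51.4 to 104 CPM in cases (median 81.8) and from 50.6 to 118 CPM in controls (median 74.6). The ranges covered each other almost completely, and the log2 fold change was 0.04 (95% interval -0.19 to 0.26, adjusted P = 0.945).

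CHST12 (ENSCAFG00000016406), another chondroitin 4-O-sulfotransferase, had the narrowest interval of the family. It ranged from 16.3 to 26.4 CPM in cases (median 19.9) and from 11.9 to 26.8 CPM in controls (median 19.6). Its log2 fold change was 0.05 (95% interval -0.14 to 0.23, adjusted P = 0.907). The group means of 20.1 ± 3.19 CPM and 19.5 ± 3.45 CPM were closer than 1 SD.

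CHST14 (ENSCAFG00000009145), the dermatan 4-O-sulfotransferase, was a low-count gene like CHST9, with a median of 27 counts in cases. It ranged from 0.487 to 2.30 CPM in cases (median 1.33) and from 0 to 2.24 CPM in controls (median 1.48). The 0 belonged to control_03, where no count was found, which allows up to 0.392 CPM at that depth (3 counts). The log2 fold change was 0.01 (95% interval -0.52 to 0.54, adjusted P = 0.996), and it was -0.06 (adjusted P = 0.917) without control_03. The interval was of similar width to that of CHST9, and the groups overlapped over nearly their whole range.

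CHST2 and CHST7 sulfate position 6 of N-acetylglucosamine, and CHST7 also acts on N-acetylgalactosamine of chondroitin. CHST2 (ENSCAFG00000008005), which helps to make sulfated L-selectin ligands, ranged from 20.9 to 105 CPM in cases (median 39.0) and from 21.1 to 97.5 CPM in controls (median 47.9). It varied 5.02-fold between the lowest and the highest case. Its log2 fold change was -0.15 (SE 0.24, 95% interval -0.63 to 0.34, adjusted P = 0.886). The groups overlapped, with 4 of 13 cases above the control median.

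CHST7 (ENSCAFG00000014753) ranged from 1.25 to 6.75 CPM in cases (median 2.91). In controls it ranged from 0.131 to 5.85 CPM (median 3.40), and the lowest value, again of control_03, rested on 1 count. The next lowest control was control_01, at 2.03 CPM. The log2 fold change was -0.11 (95% interval -0.61 to 0.39, adjusted P = 0.921), and -0.19 (adjusted P = 0.697) without control_03.

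CHST15 (ENSCAFG00000012723) adds a sulfate at position 6 to chondroitin that already carries one at position 4. It ranged from 71.8 to 194 CPM in cases (median 124) and from 64.4 to 237 CPM in controls (median 119), with control_03 highest. The log2 fold change was -0.05 (SE 0.18, 95% interval -0.42 to 0.32, adjusted P = 0.952), and 0.01 (adjusted P = 0.979) without control_03. The spread was wider among controls (SD 54.4 CPM) than among cases (SD 36.9 CPM), and that difference in spread was not tested.

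CHST10 (ENSCAFG00000002235), which sulfates the glucuronic acid of the HNK-1 epitope, ranged from 0.948 CPM (case_06) to 6.62 CPM in cases (median 4.49) and from 2.60 to 7.46 CPM in controls (median 5.21). Case_06 lay apart from the other cases, whose lowest value was 3.38 CPM. The log2 fold change was -0.16 (SE 0.18, 95% interval -0.54 to 0.21, adjusted P = 0.816), the largest in size among the 7 genes.

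**Figure D2:**
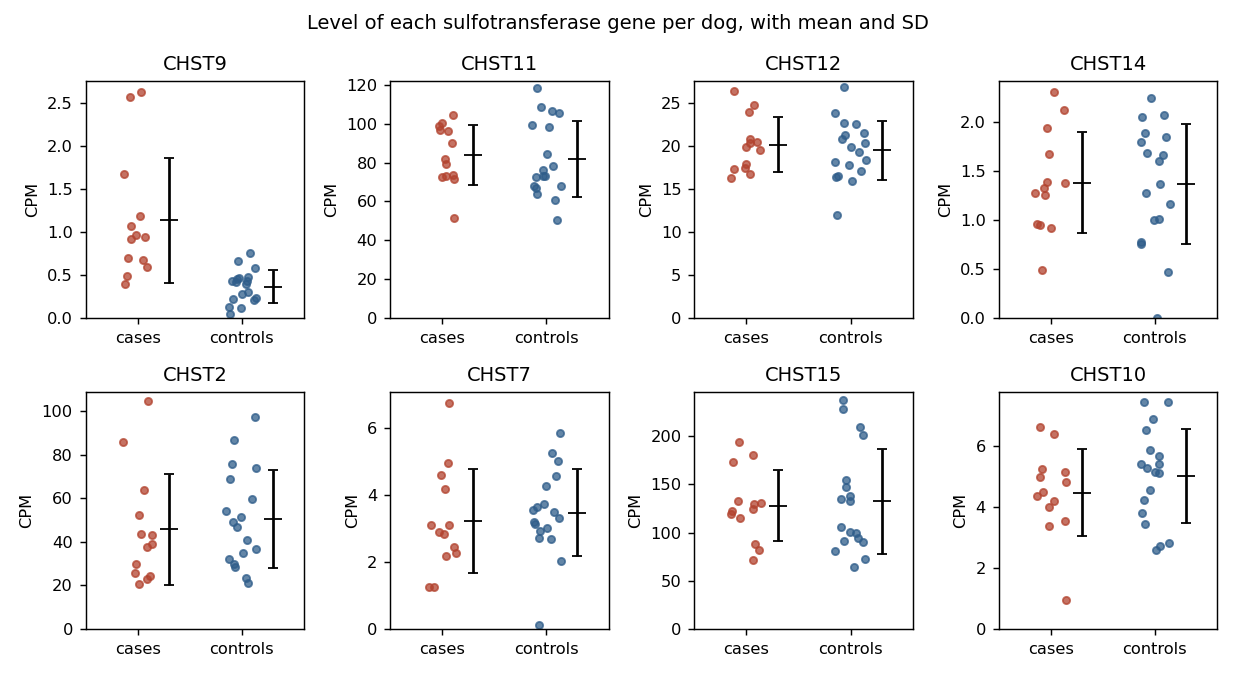
Level in CPM of each of the 8 genes in each dog, with points for dogs and, beside them, the mean and SD of cases (n = 13, red) and controls (n = 18, blue). The vertical axes differ between genes and start at 0, and CHST9 is the gene with most cases above the controls.

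**Figure D3:**
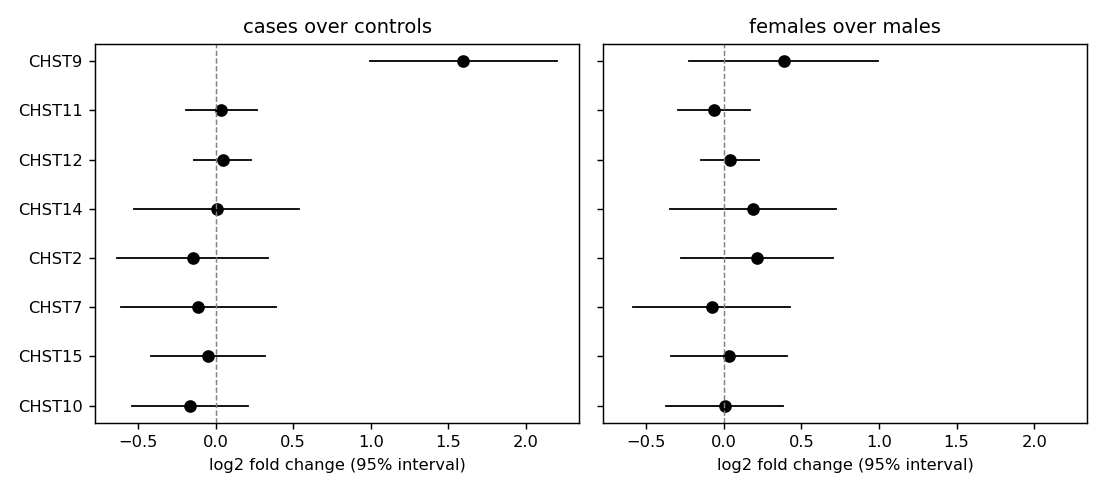
Log2 fold changes of the 8 genes from edgeR with 95% intervals, cases over controls on the left and females over males on the right. The interval of CHST9 on the left runs from 0.99 to 2.20, and the intervals of all other genes in both panels span 0.

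Female and male dogs were compared with the group as a covariate, a comparison that played no part in the choice of the genes. Of all 13918 genes 17 (0.122%) had an adjusted P of at most 0.05, and of the 8 sulfotransferase genes none had, with adjusted P from 0.959 to 0.999 (edgeR). At an unadjusted P under 0.05 there were 0 of the 8, against 4.89% of all genes (222 higher and 458 lower in females). CHST9 ranged from 0.0510 to 2.57 CPM in the 13 females (median 0.491) and from 0.114 to 2.63 CPM in the 18 males (median 0.455). Its log2 fold change of females over males was 0.39 (SE 0.30, 95% interval -0.22 to 1.00, adjusted P = 0.959). The intervals were narrowest for CHST12, at 0.04 (-0.14 to 0.23), and CHST11, at -0.06 (-0.29 to 0.17).

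CHST9 is also given by group within each sex. These are the values of the comparison that led to its choice, so they describe it. It averaged 1.28 ± 0.848 CPM in female cases (n = 5) and 0.431 ± 0.224 CPM in female controls (n = 8). In males it averaged 1.05 ± 0.688 CPM in cases (n = 8) and 0.316 ± 0.152 CPM in controls (n = 10). The interaction of group and sex was -0.22 on the log2 scale (SE 0.60, 95% interval -1.44 to 1.01, adjusted P = 1.00), an interval wide enough to hold a large difference in either direction. CHST14 had the interaction of the largest size in the family, -0.46 (SE 0.54, adjusted P = 1.00). Over all genes edgeR called 0 interactions (0%), with 547 at an unadjusted P under 0.05, and DESeq2 called 0.

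Whole blood is a mixture of cells, and the genes were next compared with markers of those cells from dog to dog. Each gene was set against 9 marker scores over the 31 dogs, with log2 CPM centred within group and small RNA side, which gave 72 combinations. Of these, 8 had an adjusted P of at most 0.05 (permutation test of Pearson's r, two-sided), and 4 did when control_03 was left out. Those 4 are not all among the 8, since CHST7 with the T cell score passed only without control_03. Such correlations were common among all genes. The smallest r of the 8 was 0.46 in size, a size reached by 11 of the 72 combinations (15.3%) and by 14.0% of the combinations of all 13918 genes with the same scores. The share among the sulfotransferase genes was near that of all genes, so the correlations with markers are given as a description of these genes and not as particular to them. After this centring, no combination that passed involved CHST9, CHST11 or CHST12.

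CHST10 rose with the T cell score, with r = 0.64 (P = 2e-05, adjusted P = 0.00144, permutation test) and rho = 0.69 (P = 1e-05, the smallest these permutations can give, adjusted P = 0.00072). Without the 2 dogs farthest from the median score r was 0.65, and it was 0.64 in cases, 0.66 in controls, 0.72 among the 10 dogs with many small RNA counts and 0.60 among the 21 with few. The direction was the same in these 4 subsets, and the adjusted P was 0.195, 0.0626, 0.0626 and 0.0818 in them (permutation test), none past the threshold. Of all genes 8.59% had an r of at least this size with the T cell score.

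CHST15 went the opposite way, with r = -0.68 (P = 8e-05, adjusted P = 0.00288, permutation test) and rho = -0.66 (P = 0.0001, adjusted P = 0.0036) against the T cell score. Without the 2 farthest dogs r was -0.64, and it was -0.56 in cases, -0.75 in controls, -0.75 among the dogs with many small RNA counts and -0.65 among those with few. The adjusted P was at most 0.05 in controls (0.036, permutation test) and in none of the other 3 subsets (0.333 in cases, 0.163 and 0.0818 on the sides). Of all genes 5.6% had an r of at least this size with the T cell score. CHST15 also rose with the erythroid score, with r = 0.54 (adjusted P = 0.0229, permutation test) and rho = 0.53 (adjusted P = 0.0274), and r = 0.50 without the 2 farthest dogs. Without control_03 this r was 0.47 (adjusted P = 0.0758, permutation test). An r of at least 0.54 in size with the erythroid score was reached by 21.3% of all genes.

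CHST2 rose with the T cell score too, with r = 0.56 (P = 0.00223, adjusted P = 0.0229, permutation test) and rho = 0.56 (P = 0.0022, adjusted P = 0.0264). The r was 0.50 without the 2 farthest dogs, 0.64 in cases and 0.50 in controls. Without control_03 it was 0.54 (adjusted P = 0.0527, permutation test). With the T cell score 16.7% of all genes had an r of at least 0.56 in size.

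CHST7 fell with the neutrophil score, with r = -0.51 (P = 0.00033, adjusted P = 0.00792, permutation test) and rho = -0.58 (P = 0.0004, adjusted P = 0.0096). The r was -0.62 without the 2 farthest dogs, -0.57 in cases, -0.50 in controls, and -0.51 (adjusted P = 0.0367, permutation test) without control_03. Among all genes 19.9% had an r of at least the size over all dogs with the neutrophil score. Against the T cell score CHST7 had r = 0.47 (adjusted P = 0.0736) and rho = 0.58 (adjusted P = 0.0187, permutation test), and without control_03 r was 0.56 (adjusted P = 0.0367). Its correlations with the erythroid score (r = -0.65, adjusted P = 0.0229) and with the cytotoxic and NK cell score (r = 0.46, adjusted P = 0.0311) did not pass the correction without control_03, at -0.47 (adjusted P = 0.153) and 0.37 (adjusted P = 0.192, permutation test). The sizes over all dogs, 0.65 and 0.46, were reached by 10.6% and 10.2% of all genes.

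CHST14 fell with the neutrophil score as well, with r = -0.52 (adjusted P = 0.0184, permutation test) and rho = -0.43 (adjusted P = 0.103). An r of at least 0.52 in size with this score was reached by 19.1% of all genes. Without control_03 the r was -0.53 (adjusted P = 0.0758, permutation test). At 0 to 82 counts per dog CHST14 is sparse, and only Pearson's r passed the threshold. Its r was larger in size with the erythroid score (-0.58) and the monocyte score (0.55), but neither passed (adjusted P = 0.0736 each, permutation test). These sizes were reached by 17.3% and 1.1% of all genes. Without control_03 they fell to -0.32 and 0.35.

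CHST9 was most strongly related to the erythroid score, with r = 0.43 (P = 0.023, adjusted P = 0.111, permutation test) and rho = 0.45 (adjusted P = 0.103), which did not pass the correction. An r of at least this size with the erythroid score was reached by 34.7% of all genes. The r was 0.62 in cases, 0.30 in controls, 0.07 among the 10 dogs with many small RNA counts and 0.59 among the 21 with few, and these differences were not tested. Against the platelet score it had r = 0.28 (P = 0.146, adjusted P = 0.351, permutation test), and against the T cell score -0.05. Without centring r was 0.51 for the platelet score and 0.50 for the erythroid score. These values draw on the difference between cases and controls for which CHST9 was chosen, so they are a description.

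**Figure D4:**
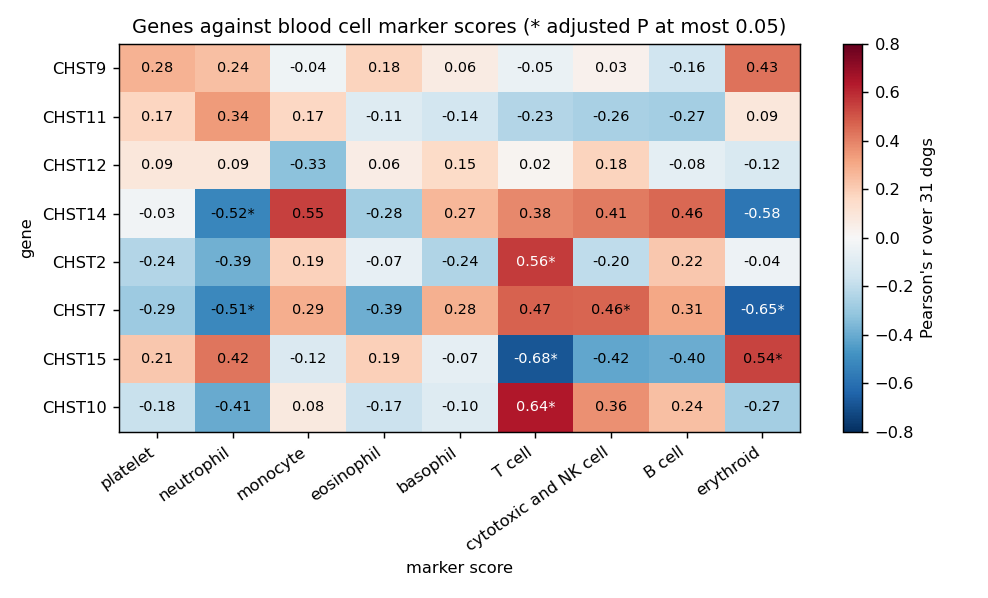
Pearson's r over 31 dogs between each of the 8 genes (vertical axis) and each of the 9 marker scores (horizontal axis), after centring within group and small RNA side, with red for positive and blue for negative values. Asterisks mark the 8 combinations with an adjusted P of at most 0.05, of which T cell markers hold 3, with CHST10 at 0.64, CHST2 at 0.56 and CHST15 at -0.68.

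**Figure D5:**
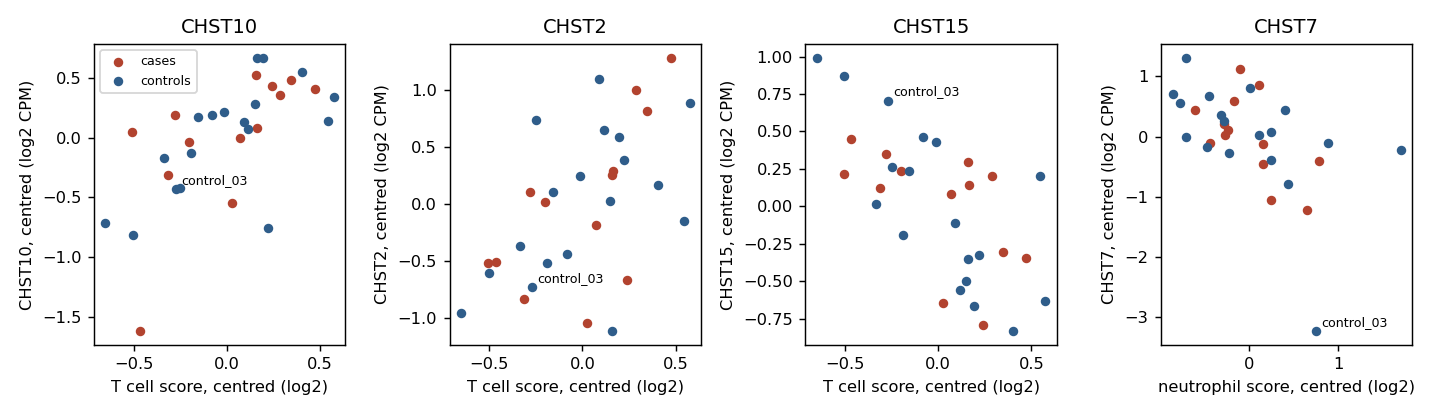
Centred log2 CPM of CHST10, CHST2 and CHST15 against the centred T cell score, and of CHST7 against the centred neutrophil score, with 1 point per dog, cases in red and controls in blue. CHST10 and CHST2 rise and CHST15 and CHST7 fall from left to right in both groups, and control_03 is the lowest point for CHST7.

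Of the 28 pairs of sulfotransferase genes, 7 had an unadjusted P under 0.05 for r (permutation test) and 1 passed the correction. The share among pairs of all genes was not measured, so these counts are a description and are not read as particular to the family. The pair that passed was CHST7 with CHST14 (r = 0.80, P = 0.00147, adjusted P = 0.0412, permutation test), with rho = 0.61 (adjusted P = 0.072). Without the 2 farthest dogs r was 0.60, and without control_03, the dog with 1 count for CHST7 and 0 for CHST14, it was 0.46 (adjusted P = 0.258, permutation test). CHST10 and CHST15, which took opposite directions against the T cell score, had r = -0.49 (adjusted P = 0.102, permutation test).

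The genes most like CHST9 over the 31 dogs after the same centring were TREH, which encodes trehalase (rho = 0.63), ALAS1, the first enzyme of heme synthesis in most tissues (0.61), PARD3B, a cell polarity gene (0.61), MICOS13, a part of the mitochondrial cristae complex (0.61), and RNF141 (0.60). Pearson's r was between 0.56 and 0.68 for the 5 genes and between 0.52 and 0.57 without case_01 and control_16, the dogs farthest from the median. The 5 genes were picked as the highest of 13917, so the values are a description. None of the other sulfotransferase genes was among them.

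Genes that supply the donor PAPS, build the chains or carry them gave no gene past the threshold between cases and controls. Over all genes, 9.81% had an unadjusted P under 0.05, 702 higher and 663 lower in cases. Of 7 tested genes for sulfate and PAPS supply, 1 had an unadjusted P under 0.05, IMPAD1, the Golgi phosphatase that clears the spent donor (log2 fold change 0.30, SE 0.14, adjusted P = 0.472), and SLC35B3, a PAPS transporter, was next at -0.14 (adjusted P = 0.646). The median log2 fold change of these 7 genes was -0.03.

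Of 12 tested genes of the chondroitin and dermatan backbone none had an unadjusted P under 0.05, and their median was -0.01. The smallest P belonged to B3GAT3, which completes the linker to the core protein (0.11, adjusted P = 0.596), and to FAM20B, the kinase that phosphorylates the xylose of that linker (-0.11, adjusted P = 0.747). Of 9 tested genes of heparan sulfate synthesis, 1 had an unadjusted P under 0.05, the 3-O-sulfotransferase HS3ST3B1 (-0.46, SE 0.22, adjusted P = 0.489), and the epimerase GLCE was at -0.23 (adjusted P = 0.613), with a median of -0.07 over the list.

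CHST3, a chondroitin 6-O-sulfotransferase and the only tested gene among the 6 further CHST genes, had a log2 fold change of -0.03 (SE 0.12, adjusted P = 0.963). The 2 tested tyrosylprotein sulfotransferases, TPST1 (0.08, adjusted P = 0.838) and TPST2 (0.09, adjusted P = 0.720), also lay near 0. Among 11 tested sulfatases and their activators none had an unadjusted P under 0.05, and the smallest P belonged to ARSA (0.12, adjusted P = 0.586).

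Of 6 tested genes that make acceptor glycans, 1 had an unadjusted P under 0.05, B3GNT2, which extends N-acetyllactosamine chains (0.39, SE 0.16, adjusted P = 0.384), and B4GALT4 was at -0.24 (adjusted P = 0.788). Of 13 tested carriers, 2 did, the stem cell and endothelial sialomucin CD34 (1.06, SE 0.35, adjusted P = 0.278) and the platelet and endothelial adhesion receptor SELP (0.56, SE 0.17, adjusted P = 0.226). SELP was at 224 ± 72.3 CPM in cases and 152 ± 50.5 CPM in controls, and it is also 1 of the 10 genes of the platelet score. CD34 was at 0.991 ± 0.622 CPM in cases and 0.472 ± 0.276 CPM in controls. CD34 was also among the genes the study itself selected from these libraries, so its value is not independent evidence. The median of the carriers was 0.02.

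Between females and males none of these genes passed the threshold either, with adjusted P of at least 0.959 (edgeR). The 5 tested genes with an unadjusted P under 0.05, a level reached by 4.89% of all genes, were the chain initiator CSGALNACT1 (-0.40), the exostosin EXTL3 (-0.24), the acceptor maker B3GNT7 (0.60) and the carriers CD44 (-0.18) and SDC2 (-0.94), given as log2 fold changes of females over males. The other genes with the smallest P of their lists were PAPSS1 (-0.15), SLC35B3 (-0.09), B3GAT3 (0.11), HS3ST3B1 (-0.39), TPST1 (-0.12), TPST2 (0.09), ARSB (0.13), STS (-0.24) and B4GALT4 (-0.44), and CHST3 was at 0.17.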

How the data were processed

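Whole-blood RNA of 31 dogs was sequenced from libraries of a stranded kit. The sources conflict on the RNA, since the labels give polyA RNA as the molecule and also describe removal of ribosomal RNA, and they name another extraction kit than the methods. The authors trimmed reads with Trimmomatic, aligned them with HISAT2 to Dog10K_Boxer_Tasha and deposited raw counts of read pairs per Ensembl gene, without normalization. The counting program and its strand setting were not given in the sources used here, so reads of overlapping antisense genes may be included. The authors used a batch covariate for 10 libraries (5 cases and 5 controls) prepared earlier for a pilot. The dogs of the pilot were not named, so no batch was fitted. The side with many small RNA counts has the same make-up, and whether it holds the same dogs is not known.

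Groups and sex came from the labels. In R 4.3.3, edgeR 4.0.16 applied filterByExpr by group and TMM, and glmQLFit and glmQLFTest compared cases with controls, females with males (group as covariate) and their interaction. The Benjamini-Hochberg adjustment covered all 13918 genes tested, with a threshold of 0.05. DESeq2 1.42.0 was an alternative. Log2 CPM took a prior count of 2 (alternative 0.5). Marker scores were means of centred log2 CPM over at least 3 markers. Correlations were tested by permuting dogs within group and small RNA side (100000 resamples; over all dogs for values without centring) in Python 3.11.15 with scipy 1.17.1, numpy 2.4.6 and pandas 2.3.3, with P adjusted over 28 pairs and 72 combinations. Figures were drawn with matplotlib 3.10.9. The fits were tested on simulated counts. No 2 libraries agreed within sampling noise (lowest chi-square per gene between 2 dogs 23.0). Intervals and the floor of 3 counts for a gene at 0 cover only what the fit or counting error covers.

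The members and lists were chosen with earlier results of these data known. Named were the members, the genes of 8 pathway lists past the threshold or otherwise the 2 with the smallest P per list, and the 5 genes with the highest Spearman rho to CHST9. A gene that this rule names is not reported here. Alternatives chosen after seeing the data were the erythroid and neutrophil scores as covariates, case_01 and control_03 left out together, control_03 left out of the sex comparison and of the correlations, and correlations within each small RNA side.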

Additional observations from a re-analysis of the deposited data

Results flagged for a closer look

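Of 32 groups of 5 to 10 dogs (8 genes, by group and sex), 3 held a dog whose gap to the next dog was a larger share of the range than Dixon's limit allows, and chance alone gives about 1 in 20.

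CHST9 reached 2.63 CPM (58 counts) in case_05, the highest of the 8 male cases, against 1.19 CPM in the next. CHST15 reached 180 CPM in case_07, the highest of the 5 female cases, against 132 CPM in the next. CHST7 fell to 0.131 CPM (1 count) in control_03, the lowest of the 10 male controls, against 2.93 CPM in the next. Control_03 was the library with the fewest genes with a count.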

How the results depend on the processing

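CHST9 was higher in cases under all 43 alternatives, with an adjusted P of at most 0.05 in 27 of 31 that left out 1 dog and in 6 of 12 others. Those 12 included fits on fewer dogs, such as the replicate block on 13 pairs. They gave log2 fold changes of 1.20 to 1.74 and adjusted P of 0.000766 (DESeq2, 1.61) to 1.00. The other 7 genes had no adjusted P under 0.620 in 301 alternatives. Of these, 30 turned a sign: with the replicate block CHST11 was at -0.040 and CHST12 at -0.016, on the high small RNA side CHST14 was at -0.24, and on the low side CHST10 was at 0.042, CHST11 at -0.0081 and CHST12 at -0.025. With the platelet score CHST2 was at 0.0083, CHST7 at 0.12 and CHST11 at -0.043, with the erythroid score CHST7 was at 0.18, and with the neutrophil score CHST7 was at 0.13 and CHST11 at -0.043. Without case_01 and control_03 CHST14 was at -0.028 and CHST15 at 0.013. With 1 dog left out CHST14 ranged from -0.077 to 0.075 and CHST15 from -0.11 to 0.016. Between sexes CHST10 turned to -0.017 (small RNA side as covariate), -0.041 (controls alone) and -0.0098 (without control_03), and CHST15 to -0.055 (controls alone). The causes were not tested.

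The count of 5 genes between cases and controls became 89 with DESeq2, 28 without case_01 and control_03, 0 with the platelet score, 0 with the neutrophil score and 0 on either small RNA side alone. With 1 dog left out it ranged from 1 (without case_01) to 154 (without control_03). The count of 17 between sexes became 27 with DESeq2 and 5 in controls alone. The 1 pair of genes became 4 without centring and 0 in cases alone, in controls alone, without control_03 and on either side alone, and the 8 combinations with marker scores became 11 without centring (CHST9 with the platelet and the erythroid score among them), 0 in cases alone, 1 in controls alone, 4 without control_03 and 0 on either side alone.

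The labels give cases and controls shared numbers. Deviations of 13 same-numbered pairs had correlations of -0.44 to 0.26 (median -0.01), 3 above 0.1, and 1 case was closest to its own number, so the numbers do not pair the dogs. With the number as a replicate block, fitted on these 13 pairs alone, 0 genes passed the threshold, and CHST9 was at 1.20 (SE 0.25, adjusted P = 0.369). That fit left out control_14 to control_18, whose CHST9 levels were 0.114, 0.299, 0.0510, 0.131 and 0.219 CPM. The effect of the block and that of the smaller set of dogs therefore cannot be told apart.

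Depth limited CHST9, with as few as 1 count in a control, and CHST14, with 0 in another.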

Other observations

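CHST1, another 6-O-sulfotransferase, did not pass the filter on low counts and was chosen for mention after its values were seen. Its level was 0.407 ± 0.280 CPM (SD, n = 13, highest 0.848) in cases and 0.194 ± 0.219 CPM (SD, n = 18, highest 0.740) in controls, from 0 to 24 counts per dog. No test of CHST1 was made here. CHST4 and CHST8 also fell under the filter, and CHST5 and CHST6 had no row of that symbol.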
